A study of Mus musculus with 12 samples.

Results

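The mitochondrial ribosomal protein genes, whose symbols begin with Mrpl or Mrps and a number, were followed across gonadal white adipose tissue (GWAT) of mice that lack HOIP in adipocytes and of their littermates on 2 diets. Of 55281 rows of the gene count table, 84 matched this symbol pattern and 79 had a mean of at least 0.5 CPM (counts scaled to a common library total) over all 12 libraries. These 79 genes are the members described here. They comprise 78 protein-coding genes and 1 pseudogene, Mrpl23-ps1, which lay just inside the minimum at 0.579 CPM. The row just outside was another pseudogene, Mrpl48-ps, at 0.0577 CPM, and the next member above Mrpl23-ps1 was Mrpl47 at 14.4 CPM. All 79 members also passed the filter on low counts that preceded the tests.

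Mitochondria carry their own ribosome, which translates the few mRNAs of the mitochondrial genome, all of them core subunits of the respiratory chain and of ATP synthase. Its RNAs are transcribed from mitochondrial DNA, but its proteins are encoded in the nucleus, made in the cytosol and imported. Part of these proteins descend from bacterial ribosomal proteins (unified names beginning u or b), and part were added in the mitochondrial lineage (names beginning m). White adipocytes use mitochondria for fatty acid oxidation, for lipid synthesis and to support adipokine secretion.

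The mice carried floxed Hoip alleles with AdipoQ.Cre, which deletes in mature adipocytes (Hoip fl/fl AdipoQ.Cre+, called HoipA-KO), or without Cre (Hoip fl/fl AdipoQ.Cre-, called WT). HOIP, the product of Rnf31, is the catalytic subunit of the linear ubiquitin ligase complex. Males were fed a control diet (CD, 14% fat) or a high-fat diet (HFD, 60% fat) from 6 weeks of age for 16 weeks and were sampled at 22 to 24 weeks. Each of the 4 groups had 3 libraries, and each library held RNA pooled from 3 mice, so the spread between libraries is a spread between pools. In whole tissue, fewer cells of a type and less RNA per cell cannot be told apart.

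Totals ranged from 30513500 to 60540260 counts per library, which puts 3 counts at 0.0496 to 0.0983 CPM. WT CD replicate 3 stood apart: over all genes tested with all 12 libraries, its log2 values correlated at 0.785 and 0.794 with the other WT CD libraries, which correlated with each other at 0.907, while pairs in the other groups lay between 0.971 and 0.993. The study leaves this library out of its comparisons, and so does the fit used here, on 11 libraries with 2 of WT CD. The main counts and medians that rest on WT CD are also given with all 12 libraries. Rnf31 was at 20.2 and 20.6 CPM in these WT CD libraries and at 17.9 to 21.6 CPM in HoipA-KO CD (log2 fold change -0.08 ± 0.14 (SE), adjusted p = 0.654 in the quasi-likelihood test of edgeR, by Benjamini-Hochberg); gene-level counts do not separate the floxed exons from the rest of the transcript, and other cell types of the tissue keep the gene, so this is no check of the deletion.

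The members were expressed in every library. Per kilobase of exon, their mean levels over the 11 libraries ran from 2.58 CPM for Mrps35 to 63.5 CPM for Mrps21 with a median of 14.8 CPM, leaving out the pseudogene. Mrps21 (bS21m), Mrps6 (bS6m, 51.1 CPM per kilobase) and Mrpl54 (mL54, 50.8) were at the top, and Mrpl47 (uL29m, 2.78) and Mrps10 (uS10m, 3.04) stood near Mrps35 at the bottom. Exon length here joins all annotated exons of a gene, 8631 bases for Mrps35 and 739 for Mrps21. Before this division their mean levels were 22.3 and 46.9 CPM. The order therefore also depends on the annotation and gives no measure of protein numbers. The genes lay on 17 chromosomes.

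The summed level of the members was 3564 and 3016 CPM in WT CD replicates 1 and 2, and 2378 CPM in replicate 3. It was 2612, 2809 and 2419 CPM in WT HFD, 2323, 2490 and 2767 CPM in HoipA-KO CD, and 2313, 2361 and 2628 CPM in HoipA-KO HFD. WT CD replicates 1 and 2 were above the libraries of the other groups, whose ranges overlapped each other. As a mean of log2(CPM + 1), the members stood at 5.23 ± 0.18 (SD, n = 2) in WT CD, 4.92 ± 0.10 (n = 3) in WT HFD, 4.91 ± 0.12 (n = 3) in HoipA-KO CD and 4.86 ± 0.089 (n = 3) in HoipA-KO HFD. WT CD replicate 1 held the highest value of 56 members, and WT CD replicate 3 held the lowest value of 39.

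**Figure D1:**
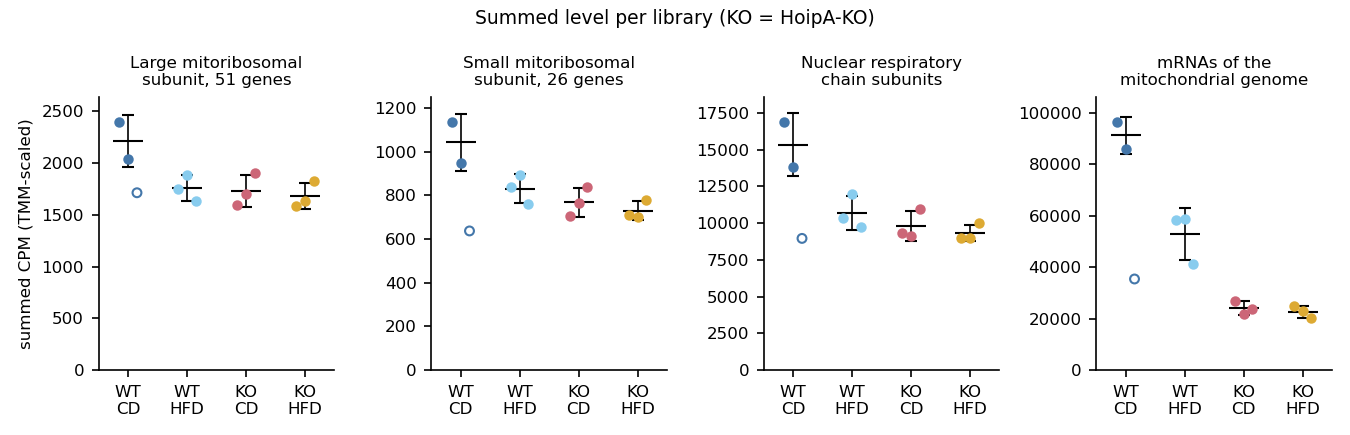
Summed CPM (TMM-scaled, vertical axes from 0) of the large and small mitoribosomal subunits, of nuclear respiratory chain subunits and of the mRNAs of the mitochondrial genome. Each point is 1 library, the open point is WT CD replicate 3, which is outside the fit, and the bar gives mean and SD of the filled points. The small subunit sum was 1136 and 950 CPM in WT CD replicates 1 and 2 but 638 CPM in replicate 3, below the 702 CPM of the lowest HoipA-KO HFD library.

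The genotype comparison on CD asks what adipocyte loss of HOIP does to these genes in lean tissue. In the fit on 11 libraries, 23 of 79 members fell in HoipA-KO and 1 rose, at an adjusted p under 0.05 (edgeR, quasi-likelihood). That is 29.1% of members lower and 1.27% higher, beside 18.8% lower and 18.9% higher among the 18427 genes tested. The estimate was below 0 for 70 of 79 members, and the median log2 fold change was -0.32, against -0.06 over all genes tested. In the large subunit 16 of 51 genes fell and 1 rose (median -0.35), and in the small subunit 7 of 26 fell (median -0.31). By origin, 13 of 46 proteins of bacterial descent and 10 of 31 of mitochondrial descent fell, with medians of -0.34 and -0.32. The falls with all 12 libraries were 7 in the large and 1 in the small subunit, and 3 and 5 by origin.

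With WT CD replicate 3 included, 8 members fell (10.1%, beside 19.1% of all genes tested) and 1 rose, and the members' median of -0.22 stood next to that of all genes, -0.21. The calls shared by both fits were those of Mrpl1, Mrpl11, Mrpl38, Mrpl51, Mrpl53, Mrps31 and Mrpl19. Mrpl53 shares 695 of its 790 exon bases on the same strand with the annotated gene Gm42688. The counts hold no row under that symbol, and how reads of the shared bases were assigned was not tested. The other 17 calls of the fit on 11 libraries, among them those of Mrps6, Mrps34, Mrps35, Mrpl10, Mrpl49 and Mrpl50, were not made with all 12. Leaving WT CD replicate 1 out of the 11 libraries left 1 WT CD library, and the members' median was then -0.199. Leaving out HoipA-KO CD replicate 1 or 2 left 14 members called each, and leaving out HoipA-KO CD replicate 3 gave 49. The share of all genes called in those fits is not given here, so these counts do not set the members apart from other genes.

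**Figure D2:**
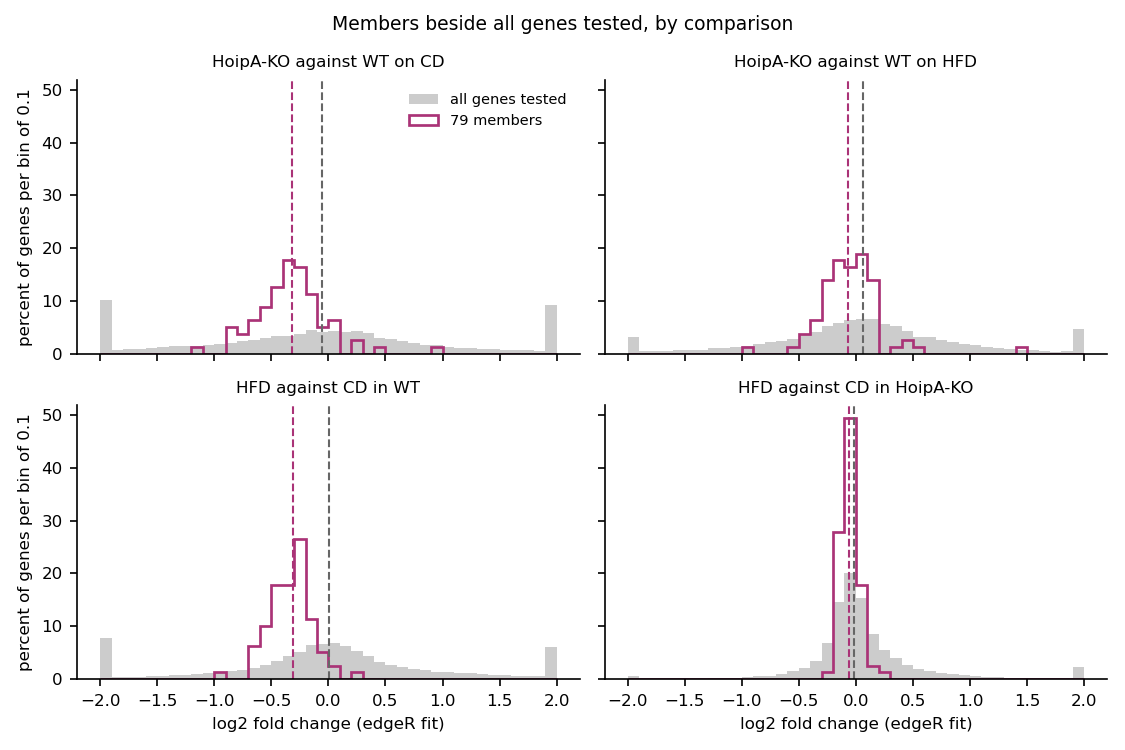
Percent of genes per bin of log2 fold change (horizontal axes, edgeR fit on 11 libraries) for the 79 members (line) and all 18427 genes tested (grey), with dashed lines at the medians; the outermost grey bins hold all genes beyond the axis. The members' median lay left of that of all genes by the most in HFD against CD in WT (-0.31 and 0.0036) and by the least in HFD against CD in HoipA-KO (-0.06 and -0.01).

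In the small subunit, Mrps6 (bS6m, chromosome 16:92058270-92112227 of GRCm38, plus strand), whose product is the homolog of bacterial S6, showed the lowest estimate of all members on CD. It was at 125 and 117 CPM in WT CD replicates 1 and 2 and at 47.9, 56.4 and 64.6 CPM in HoipA-KO CD. These groups did not overlap, but WT CD replicate 3 was at 47.4 CPM, under every HoipA-KO CD library. The log2 fold change was -1.10 ± 0.20 (SE, adjusted p = 0.00248 by edgeR), and -0.81 with all 12 libraries (adjusted p = 0.0763). Mrps6 shares 159 exon bases on the same strand with Slc5a3, a myo-inositol transporter gene, which fell by 1.28 on the log2 scale on CD (adjusted p = 0.0141) and fell by 1.47 on HFD (adjusted p = 0.0203), so how reads were split between them bears on both values.

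Mrps35 (mS35, 6:147042764-147073991, plus strand), a mitochondria-specific protein of the small subunit, was at 31.6 and 41.2 CPM in WT CD replicates 1 and 2 and at 19.3, 18.7 and 21.5 CPM in HoipA-KO CD. Replicate 3 of WT CD was at 16.2 CPM. The fitted log2 fold change was -0.88 ± 0.14 (SE, edgeR adjusted p = 0.00169), and -0.62 with all 12 libraries (adjusted p = 0.114). Mrps34 (mS34, 17:24895116-24897502, plus strand), required for stability of the small subunit, was at 50.9 and 49.0 CPM against 25.3, 22.9 and 34.9 CPM, with 27.9 CPM in WT CD replicate 3. The difference on the log2 scale was -0.85 ± 0.17 (SE, edgeR adjusted p = 0.00428), and -0.65 with all 12 libraries (adjusted p = 0.0619). Mrps34 shares 763 exon bases with Nme3 on the same strand, whose estimate on CD was -0.45 (adjusted p = 0.0968). It also shares 1309 exon bases with Mapk8ip3 on the opposite strand, whose estimate on CD was -0.06 (edgeR adjusted p = 0.86).

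In the large subunit, Mrpl49 (mL49, 19:6053622-6057785, minus strand) was at 60.5 and 44.4 CPM in WT CD replicates 1 and 2 and at 27.0, 30.1 and 31.7 CPM in HoipA-KO CD, and WT CD replicate 3 at 26.3 CPM lay below all of them. Its log2 fold change was -0.83 ± 0.15 (SE, edgeR adjusted p = 0.00313), and -0.60 with all 12 libraries (adjusted p = 0.0901). Mrpl51 (mL51, 6:125191801-125196269, plus strand) had all WT CD libraries high, at 116, 94.0 and 110 CPM and HoipA-KO CD at 59.9, 63.3 and 74.7 CPM. It fell by 0.67 on the log2 scale (SE 0.16, edgeR adjusted p = 0.011). Mrpl1 (uL1m), Mrpl11 (uL11m) and Mrpl38 (mL38) likewise kept HoipA-KO CD below all WT CD libraries. Mrpl1, the homolog of the protein that forms the mobile L1 stalk of bacterial ribosomes, was at 26.6, 25.9 and 41.0 CPM in WT CD and at 16.6 to 20.8 CPM in HoipA-KO CD.

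Mrpl19 (bL19m, 6:81957851-81965958, minus strand), whose bacterial homolog sits at the interface of the subunits, was the member that rose. It was at 16.1, 14.4 and 10.7 CPM in WT CD, below the 26.3, 33.0 and 26.9 CPM of HoipA-KO CD. The log2 fold change was 0.92 ± 0.20 (SE, edgeR adjusted p = 0.00673). It shares 1962 exon bases with Gcfc2 on the opposite strand, and Gcfc2 rose too, by 0.70 on the log2 scale (adjusted p = 0.0339), which did not pass with all 12 libraries (0.37, adjusted p = 0.294); whether the counting used strand is not given in the sources used here.

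Counted over 3 against 3 libraries on CD, all HoipA-KO libraries lay below all WT libraries for 13 members (16.5%; 18.3% of genes tested) and above them for 1 member, Mrpl19 (1.27%; 20.7% of genes tested). The share that lay below was thus near that of all genes once WT CD replicate 3 was counted.

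**Figure D3:**
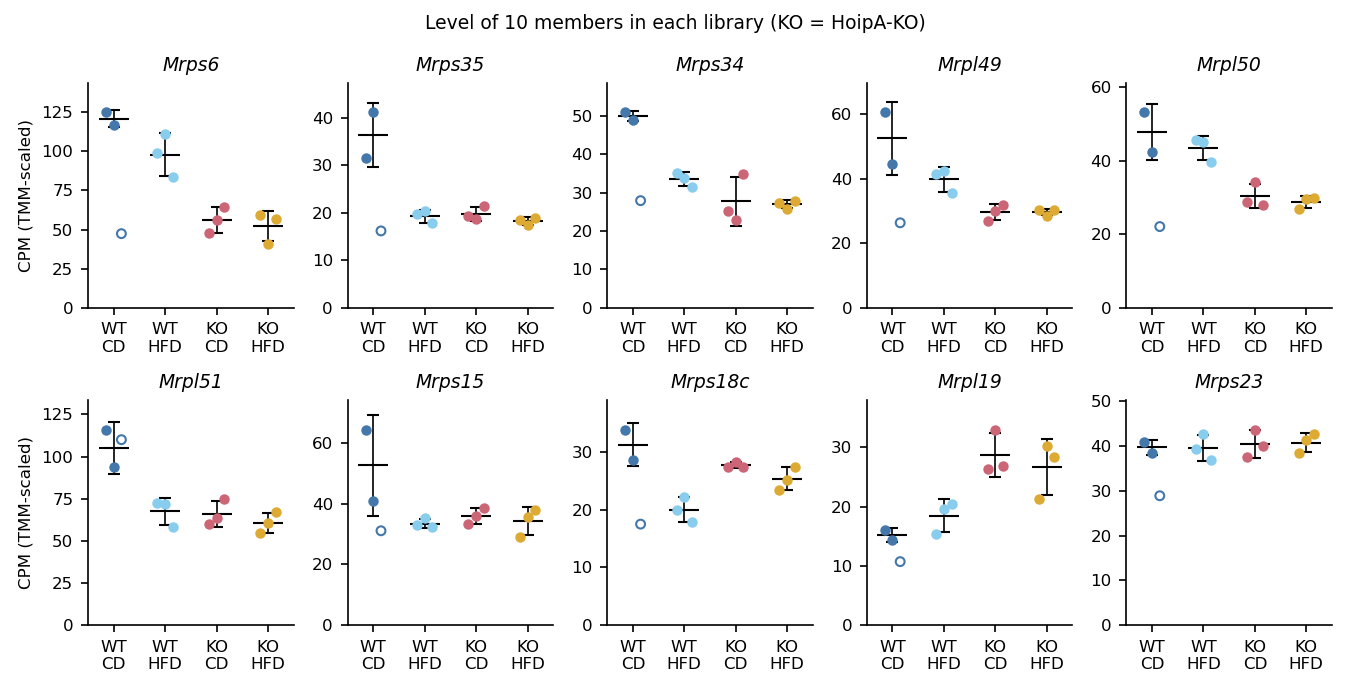
CPM (TMM-scaled, vertical axes from 0) of 10 members in each of the 12 libraries, with mean and SD of the filled points; open points are WT CD replicate 3. In Mrps6, Mrps35, Mrps34, Mrpl49 and Mrpl50 the open point lies near or below the HoipA-KO CD libraries, in Mrpl51 it lies with the other WT CD libraries at 110 CPM, and Mrps23 (36.8 to 43.7 CPM in the 11 filled points) is shown as a member with little difference.

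Members picked for their role rather than their change mostly stayed short of the threshold on CD. Mrpl12 (bL12m) and Mrpl10 (uL10m) form the stalk that recruits translation factors; Mrpl10 fell by 0.46 on the log2 scale (edgeR adjusted p = 0.0254), while Mrpl12 stood at -0.47 (adjusted p = 0.0733). Mrps12 (uS12m), at the decoding centre, was at -0.41 (adjusted p = 0.052). Mrpl45 (mL45), which holds the ribosome to the inner membrane, was at -0.31 (adjusted p = 0.146), and Mrpl58 (mL62), a release factor relative built into the large subunit, at -0.35 (adjusted p = 0.103). Mrps30 (mL65), which sits in the large subunit despite its name, was at -0.53 (adjusted p = 0.0633). Mrps36, now known as an adaptor of the oxoglutarate dehydrogenase complex and not as a ribosomal protein, was at -0.23 (adjusted p = 0.176).

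The mouse genome holds several homologs of bacterial S18. Mrps18c (bS18m) occupies the S18 site, Mrps18b (mS40) sits elsewhere in the small subunit and Mrps18a (mL66) in the large subunit. Their log2 fold changes on CD were -0.18, -0.29 and -0.17, none past the threshold (edgeR adjusted p = 0.326, 0.153 and 0.373). On HFD, Mrps18c was at 20.0, 22.2 and 17.9 CPM in WT and at 23.5, 25.2 and 27.4 CPM in HoipA-KO, a difference of 0.34 that did not pass the test (adjusted p = 0.0931).

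**Figure D4:**
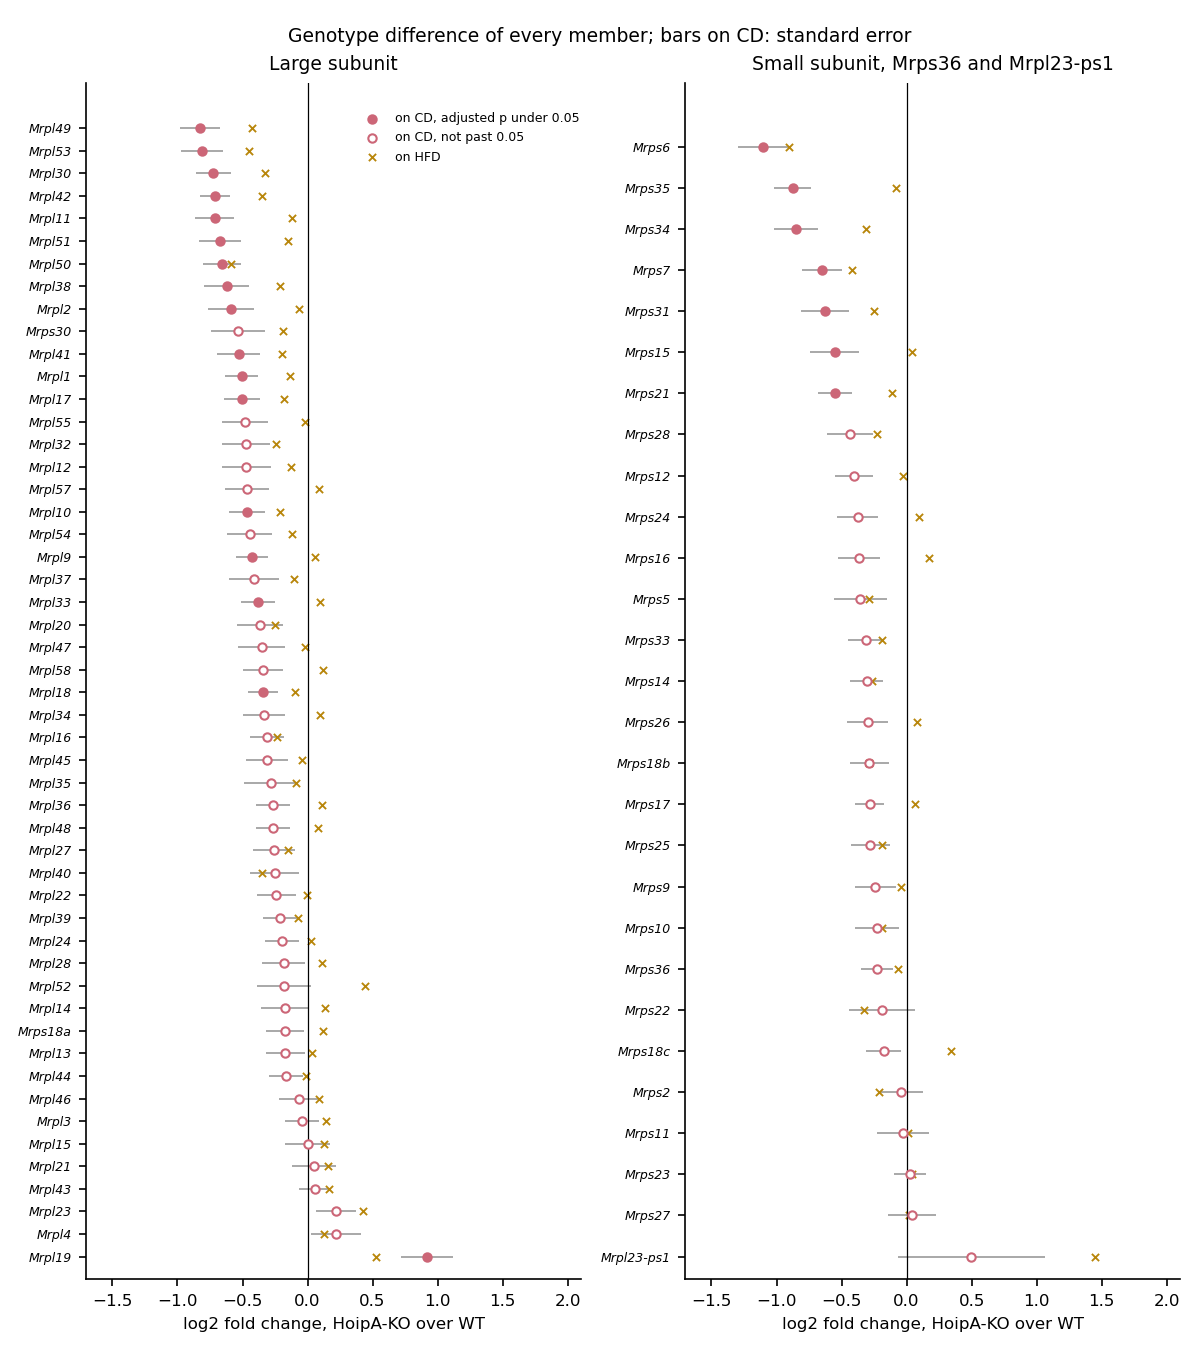
Log2 fold change of HoipA-KO over WT for every member, ordered by its value on CD; circles with SE bars are CD (filled where the adjusted p was under 0.05) and crosses are HFD. On CD 70 of 79 circles lie left of 0, and on HFD 48 of 79 crosses do.

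On HFD, where both genotypes had 3 libraries, 2 of 79 members fell (2.53%) and 0 rose, beside 7.62% lower and 4.2% higher among all genes tested. The members' median was -0.07 and that of all genes 0.06, and 13 members had an unadjusted p under 0.05. The share of all genes at an unadjusted p under 0.05 is not given in this report. Counts at that threshold therefore do not set the members or other gene lists apart. Mrps6 was at 99.0, 111 and 83.9 CPM in WT and at 59.2, 41.1 and 56.7 CPM in HoipA-KO, so the groups did not overlap. Its log2 fold change was -0.90 ± 0.18 (SE, edgeR adjusted p = 0.0174). Mrpl50 (mL50, 4:49512596-49521093, minus strand) was at 45.7, 45.1 and 39.6 CPM in WT and at 27.0, 29.7 and 30.0 CPM in HoipA-KO. Its log2 fold change was -0.59 ± 0.13 (SE, edgeR adjusted p = 0.0253), close to the -0.66 it showed on CD (adjusted p = 0.00706). With all 12 libraries neither passed (adjusted p = 0.144 and 0.218), and 5 members had an unadjusted p under 0.05, though the estimates hardly moved (-0.92 and -0.61), since WT CD replicate 3 enters this comparison only through the shared spread and scaling. Leaving out WT HFD replicate 1, WT HFD replicate 2 or HoipA-KO HFD replicate 2 left 0 members called. The share of all genes called in those fits is not given here, so these counts do not set the members apart from other genes.

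By separation alone, 17 members (21.5%) had every HoipA-KO HFD library below every WT HFD library, against 22.7% of genes tested, and 6 members (7.59%) the reverse, against 20.7% of genes tested. Those above were Mrpl19, Mrpl23, Mrpl23-ps1, Mrpl43, Mrpl52 and Mrps18c. Mrpl19 was at 15.3, 19.6 and 20.5 CPM in WT HFD and at 21.3, 30.2 and 28.4 CPM in HoipA-KO HFD (log2 fold change 0.53, edgeR adjusted p = 0.0758). Mrpl23-ps1 is a pseudogene named after Mrpl23, and how reads of both were split bears on its low counts.

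The diet comparison in WT asks what obesity-inducing feeding does without the deletion; it shares the WT CD libraries with the genotype comparison on CD, so their values stand side by side and not as independent results. In WT, 13 of 79 members fell on HFD (16.5%) and 0 rose, beside 5.47% lower and 9.35% higher among genes tested, with a median of -0.31 against 0.0036. The estimate was below 0 for 76 members. Mrps35 was at 31.6 and 41.2 CPM on CD and at 19.8, 20.4 and 17.8 CPM on HFD, with a log2 fold change of -0.91 ± 0.14 (SE, edgeR adjusted p = 0.00658). Mrps15 (uS15m), the homolog of bacterial S15, was at 64.5 and 40.9 CPM against 32.9, 35.2 and 32.2 CPM, with a log2 fold change of -0.66 ± 0.19 (SE, edgeR adjusted p = 0.0471). Mrps18c was at 33.9 and 28.7 CPM against 20.0, 22.2 and 17.9 CPM (-0.64 ± 0.14, adjusted p = 0.0154 by edgeR). Mrpl51 was at 116 and 94.0 CPM against 72.3, 71.8 and 58.4 CPM (-0.64 ± 0.16, adjusted p = 0.0316 by edgeR).

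These 4 genes did not overlap between diets in the libraries of the fit, but WT CD replicate 3 was at 16.2, 31.1 and 17.5 CPM for Mrps35, Mrps15 and Mrps18c, below the lowest WT HFD library in each, and at 110 CPM for Mrpl51. With all 12 libraries the calls of Mrpl1 and Mrpl51 remained out of 13, with a median of -0.17 against -0.05 over all genes, and when replicates 2 and 3 stood for WT CD the median was 0.04. Leaving out WT HFD replicate 2 or 3 left 2 members called each, and leaving out HoipA-KO CD replicate 3 gave 30. The share of all genes called in those fits is not given beside these counts. Of the 13 members, 10 were also among the 23 that fell with genotype on CD; Mrpl36, Mrpl57 and Mrps18c were called with diet and not with genotype, a difference that was not tested.

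**Figure D5:**
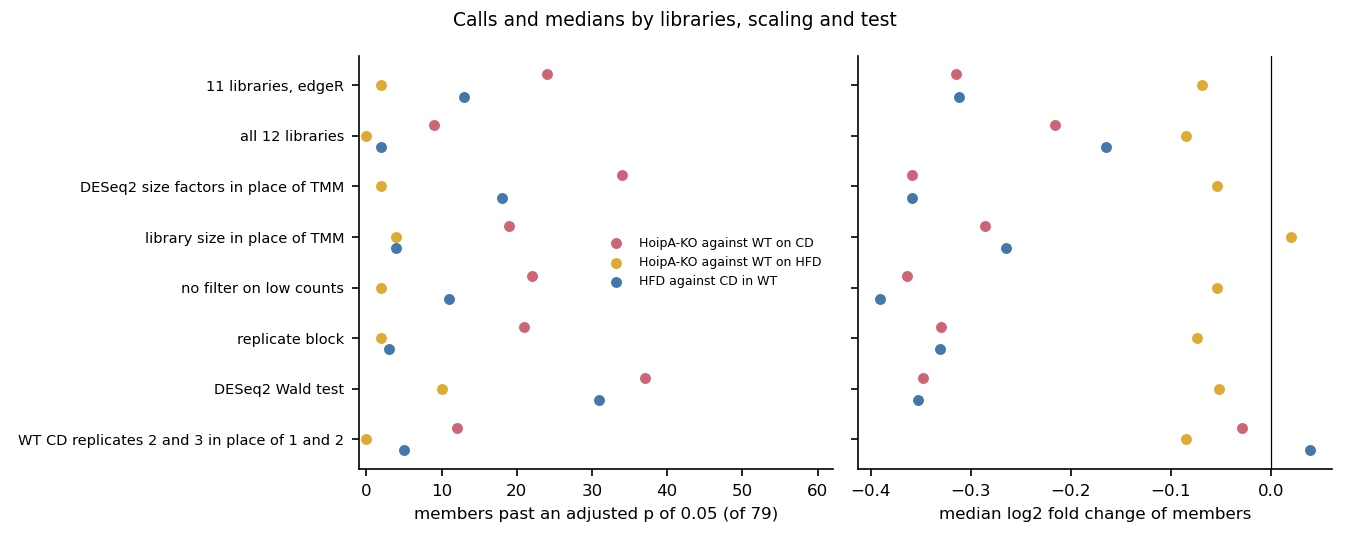
Number of members past an adjusted p of 0.05 (left) and members' median log2 fold change (right) for the 3 comparisons under the choices of libraries, scaling and test plotted, which leave out the omission of single libraries. Among these choices the genotype calls on CD range from 9 with all 12 libraries to 37 with DESeq2's Wald test, and the diet calls in WT from 2 to 31. Shares of all genes called under each choice are not plotted.

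Between HFD and CD in HoipA-KO no member was called: 0 of 79 passed the edgeR test, 0 had an unadjusted p under 0.05 and DESeq2 called 0, where the edgeR test called 0 of 18427 genes (0%). Their log2 fold changes lay between -0.24 and 0.29 with a median of -0.06. The interaction of genotype and diet, (HoipA-KO HFD minus HoipA-KO CD) minus (WT HFD minus WT CD), was past the threshold for 0 of 79 members by edgeR, beside 3.91% of genes tested. In that contrast 13 members had an unadjusted p under 0.05, and DESeq2 called 6, all positive. The estimate was above 0 for 72 of 79, with a median of 0.29. Mrps35 came nearest at 0.80 ± 0.19 (SE, edgeR adjusted p = 0.0536). With all 12 libraries 59 of 79 estimates were above 0, the median was 0.155, and 3 members had an unadjusted p under 0.05 by edgeR. Apart from the 3.91% called, values over all genes are not given for this contrast, so these counts do not set the members apart from other genes. A difference in the genotype effect between diets was thus not shown for any member by the edgeR fit.

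Other parts of the mitochondrial translation system were counted in the same way on CD, where 18.8% of all genes tested fell. Of 5 mitoribosomal proteins with other symbols 2 fell, Dap3 (mS29, -0.59, edgeR adjusted p = 0.00444) and Ptcd3 (mS39, -0.62, adjusted p = 0.00791). Of 24 genes of ribosome assembly and rRNA modification 8 fell, among them Nsun4, which methylates the small rRNA (-0.79, adjusted p = 0.00263), and 1 rose, Rpusd4, a pseudouridine synthase of the large rRNA (0.82, adjusted p = 0.0109). Of 13 translation factors 3 fell, with the ribosome recycling factor Mrrf at -0.99 (adjusted p = 0.00113), and of 20 genes of mitochondrial aminoacyl-tRNA synthesis 4 fell, with the glutamyl-tRNA synthetase Ears2 at -1.09 (adjusted p = 0.00115). Of 12 genes for transcription, replication and RNA stability of mitochondrial DNA 3 fell, including Tfam, its packaging and transcription factor (-0.32, adjusted p = 0.0433). The medians of these 5 lists ran from -0.35 to -0.18. The falls in these lists with all 12 libraries were 2, 3, 1, 4 and 3 in the same order, beside 19.1% of all genes tested. The genes named here were called in both fits, but the estimates of Dap3, Nsun4 and Tfam moved to -1.14, -2.67 and -1.19, with WT CD replicate 3 at 131, 143 and 105 CPM, against 60.7 and 51.5, 15.9 and 15.9, and 31.3 and 30.5 CPM in WT CD replicates 1 and 2.

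The mRNAs that these ribosomes translate had lower estimates. Among all genes tested with 11 libraries, 18.8% fell on CD and 7.62% fell on HFD. All 13 mRNAs of the mitochondrial genome fell on CD (median log2 fold change -1.96), and 12 of 13 fell on HFD (median -1.17); with all 12 libraries 12 and 2 were called, with medians of -1.66 and -1.19. Their summed level was 96270 and 86040 CPM in WT CD replicates 1 and 2, 35360 CPM in WT CD replicate 3, below every WT HFD library, 41320 to 58720 CPM in WT HFD, 21590 to 26870 CPM in HoipA-KO CD and 20190 to 24840 CPM in HoipA-KO HFD, and nuclear copies of mitochondrial DNA may share some of these reads. Among nuclear respiratory chain subunits, 58 of 90 fell and 1 rose on CD (median -0.70), and 3 fell and 1 rose on HFD (median -0.16); with all 12 libraries 21 fell on CD (median -0.49), and on HFD 0 were called by edgeR, with 7 at an unadjusted p under 0.05 and a median of -0.175. Ndufa5, a complex I subunit, was at 83.0 and 73.5 CPM in WT CD replicates 1 and 2 and at 36.9, 34.5 and 43.0 CPM in HoipA-KO CD (log2 fold change -1.04, edgeR adjusted p = 0.00105), and WT CD replicate 3 lay between them. Among cytosolic ribosomal proteins 4 of 82 rose and 2 fell on CD (median 0.23), where 18.9% of all genes tested rose. On HFD 33 rose and 0 fell (median 0.65), where 4.2% of all genes tested rose. With all 12 libraries 4 rose and 3 fell on CD (median 0.455), and 0 were called by edgeR on HFD, where 40 had an unadjusted p under 0.05 and the median was 0.63.

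Among 9 regulators of mitochondrial biogenesis, Ppargc1a, the coactivator that induces mitochondrial genes, fell by 1.76 on the log2 scale on CD (edgeR adjusted p = 0.00233), from 7.24 and 4.44 CPM (5.21 CPM in WT CD replicate 3) to 2.06, 1.39 and 1.72 CPM. Nrf1, a transcription factor for nuclear mitochondrial genes, rose by 0.53 (adjusted p = 0.0186), its coactivator Pprc1 by 0.72 (adjusted p = 0.0211) and Myc by 1.73 (adjusted p = 0.00105). Nrf1 did not pass with all 12 libraries (adjusted p = 0.0559).

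Markers of cell types were counted in the same comparisons. Between diets in WT, 1 of 10 adipocyte markers fell (median -0.35) and 9 of 10 macrophage markers rose (median 2.9). Among all genes tested 5.47% fell and 9.35% rose there. With all 12 libraries 1 adipocyte marker rose and 1 fell with diet in WT, and 9 macrophage markers rose. On CD 9 of 10 adipocyte markers fell (median -1.92) and on HFD 10 of 10 (median -2.04); their summed level was 21000 to 48060 CPM in WT CD, 21530 to 29130 CPM in WT HFD, 6281 to 9111 CPM in HoipA-KO CD and 5545 to 7915 CPM in HoipA-KO HFD, and 13890 CPM in WT CD replicate 3. Macrophage markers rose for 9 of 10 on CD and 6 of 10 on HFD, and their sums were 431 to 565, 1546 to 5075, 8761 to 10250 and 6040 to 10710 CPM in the same order of groups, and 312 CPM in WT CD replicate 3. Of 6 proliferation markers 6 rose on CD (sums of 21.6 and 22.0 CPM in WT CD, 220 CPM in WT CD replicate 3 and 182 to 356 CPM in HoipA-KO CD), and of 6 endothelial markers 2 fell on CD (median -0.72) and 3 on HFD (median -0.89). With all 12 libraries 8 adipocyte, 9 macrophage and 2 proliferation markers were called on CD, the last with a median of 1.40, and 7 adipocyte and 0 macrophage markers on HFD, where 7 macrophage markers had an unadjusted p under 0.05; of endothelial markers 1 was called on CD and 0 on HFD. No defining marker of adipocytes, macrophages or endothelium was at or under 3 counts in any library. Epididymal epithelium markers, from the organ next to this fat pad, summed to 18890 CPM in WT CD replicate 2 and 1587 CPM in HoipA-KO HFD replicate 1, against 0.135 to 108 CPM in the other libraries of the fit. Without WT CD replicate 2, which leaves 1 WT CD library, the members' median on CD was -0.43. Without HoipA-KO HFD replicate 1 the median on HFD was -0.02 with 3 called. The part of these cell types in the members' values was not tested.

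A head-to-head start, which the choice by symbol did not use, was more frequent among the members than in the whole table. For 33 of 78 protein-coding members (42.3%), the annotated start lay within 1000 bases of the start of a gene that runs the other way, against 10.8% of 21749 protein-coding genes in the table. These 21749 genes include genes too low to be tested, while all members were tested. The shares thus differ in expression as well as in membership, and a share among tested genes was not taken. Pairs whose first exons overlap are included, and for these reads may not be fully separate if the counting did not use strand. Mrps11 and Mrpl46 are an overlapping pair of 2 members, with starts 412 bases apart and 173 exon bases shared on opposite strands. Their log2 fold changes on CD were -0.03 and -0.06. Of the 31 partners that are not members, 30 were tested, and on CD 8 rose and 5 fell with a median of 0.04, beside 18.9% higher and 18.8% lower among all genes tested. Of the 33 members with such a start 11 fell (median -0.36), and 3 with all 12 libraries. The medians of members with and without such a start, -0.36 and -0.31, were close. Mrpl51 fell while its partner Ncapd2, a condensin subunit 100 bases away, rose by 1.14 (edgeR adjusted p = 0.00485), and Mrps7 fell by 0.65 (adjusted p = 0.0104) while Gga3, 126 bases away and sharing 127 exon bases on the opposite strand, rose by 1.27 (adjusted p = 0.00116). Mrps34 and Eme2, 29 bases apart, both fell (adjusted p = 0.00428 and 0.0284). When all 12 libraries entered, Ncapd2 stood at 0.13 (adjusted p = 0.84), Eme2, Mrps7 and Mrps34 did not pass, and Gga3 did (adjusted p = 0.00486).

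Promoter windows of 300 bases (250 before and 50 after the start, RefSeq, build GRCm38.p6) were matched by symbol for 69 of 78 members, and 5 short motifs were searched on both strands. The ETS motif CCGGAAG, read by GABPA, was in a window of 26 of 69 members (37.7%) and of 17% of 13019 tested genes with a window. The NRF1 core GCATGCGC was in 8 (11.6%, against 5.05%), the YY1 motif ATGGCGG in 13 (18.8%, against 7.86%), the estrogen-related receptor motif AAGGTCA in 4 (5.8%, against 4.26%) and the E-box CACGTG in 5 (7.25%, against 10.8%). These are matches of letters and not shown sites. The 13019 genes were not matched to the members in expression or in head-to-head starts, so the shares may differ for reasons other than membership. On CD the 26 members with the ETS motif had a median of -0.29 with 6 called lower (23.1%), and the 43 without it a median of -0.36 with 14 called lower (32.6%), beside 18.8% of all genes tested. When all 12 libraries entered, 2 and 4 were called lower, and the medians were -0.15 and -0.27.

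Stretches directly upstream of 4 members with head-to-head starts are shown because they carry such motifs, in members that fell on CD (Mrpl9 and Mrpl10) and in members near 0 (Mrpl43 and Mrps27). They lie at chr3:94443198-94443317 (plus strand), chr11:97041440-97041559 (plus), chr19:45006443-45006557 (minus) and chr13:99344706-99344785 (plus) of GRCm38.p6, outside all annotated exons, written 5′ to 3′ on the strand of the gene with NRF1 and ETS matches in capitals; in Mrpl9 matches on both strands overlap.
Mrpl9: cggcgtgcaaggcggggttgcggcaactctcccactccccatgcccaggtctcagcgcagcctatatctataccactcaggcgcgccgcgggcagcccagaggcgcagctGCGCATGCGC
Mrpl10: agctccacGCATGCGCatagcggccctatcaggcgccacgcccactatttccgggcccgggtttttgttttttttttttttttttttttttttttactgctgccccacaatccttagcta
Mrpl43: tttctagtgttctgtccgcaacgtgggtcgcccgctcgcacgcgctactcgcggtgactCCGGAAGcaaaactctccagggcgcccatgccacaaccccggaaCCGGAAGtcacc
Mrps27: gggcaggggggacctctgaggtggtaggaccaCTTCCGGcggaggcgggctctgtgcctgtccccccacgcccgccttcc
Mrpl9 (bL9m) was at 51.5 and 54.0 CPM in WT CD replicates 1 and 2, at 29.1 CPM in replicate 3 and at 39.6, 37.5 and 40.7 CPM in HoipA-KO CD (log2 fold change -0.43, edgeR adjusted p = 0.0242), and Mrpl10 was at 69.2, 56.7 and 40.4 CPM against 40.6, 46.5 and 49.7 CPM. Mrpl43 (mL43) was at 38.8, 37.2 and 29.4 CPM against 37.2, 37.2 and 44.1 CPM (0.06, adjusted p = 0.747), and Mrps27 (mS27) at 22.9, 15.0 and 12.7 CPM against 18.6, 21.5 and 18.6 CPM (0.04, adjusted p = 0.866). In all 4, WT CD replicate 3 was the lowest of the WT CD libraries. With all 12 libraries the falls of Mrpl9 and Mrpl10 did not pass (-0.23 and -0.32, edgeR adjusted p = 0.435 and 0.215).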

How the data were processed

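RNA from GWAT pools was sequenced from polyA-selected stranded libraries. Per the labels and the study's methods, the authors trimmed reads with Trim Galore 0.6.7, aligned them with STAR 2.7.10a and quantified them with Salmon 1.5.2; the submitters' notes name build GRCm38, and whether the counting used strand is not given in the sources used here. The deposited table used here holds estimated counts for all genes, which were rounded. A second table, of protein-coding genes, and tables of the authors' own comparisons (fold changes and p-values from DESeq2) were not used.

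Counts were filtered with filterByExpr, scaled by TMM and fitted over the 4 groups in edgeR 4.0.16 (R 4.3.3; quasi-likelihood test, 18427 genes, Benjamini-Hochberg adjustment over all of them, threshold 0.05), on 11 libraries as the study's own comparisons do. DESeq2 1.42.0 was an alternative. The code was tested on simulated counts. CPM are TMM-scaled (WT CD replicate 3 with the factors of all 12 libraries), except the minimum of 0.5, which uses library totals; SE is the log2 fold change divided by the root of F. Where nothing else is said, log2 fold changes are from this fit. Gene positions are from GENCODE M21 (GRCm38), which held 51948 of 55281 IDs.

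The members and gene lists were chosen with earlier results of these data known. Named are the 4 largest rises and falls past the threshold per comparison, members fixed by role, those nearest the CPM minimum and up to 4 genes a list; Mrpl1, Mrpl11, Mrpl38, Mrps7, Mrps23, Mrpl9, Mrpl43, Mrps27, Mrps21, Mrpl54, Mrpl47, Mrps10, Mrps11, Mrpl46 and the neighbouring genes were added after their values were seen. Alternatives were other scalings, no filter, all 12 libraries, DESeq2, a replicate block and leaving out each library; replacing WT CD replicate 1 by replicate 3 was chosen after seeing the data. Replicates are pools of mice, and p-values measure the spread between pools.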

Additional observations from a re-analysis of the deposited data

Results flagged for a closer look

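Of the genes named above, 1 differed between diets in its genotype effect by the interaction term (edgeR, adjusted over all genes tested), and it is not a mitochondrial ribosomal protein gene. For Ndufa5 the term was 1.05 (adjusted p = 0.0301). With all 12 libraries it was 0.89 and did not pass (adjusted p = 0.125).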

How the results depend on the processing

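With all 12 libraries the members called were 9 for genotype on CD, 0 for genotype on HFD and 2 for diet in WT (median -0.165). When WT CD replicate 3 replaced replicate 1 they were 12 (4 higher, 8 lower; median -0.0285), 0 and 5 (1 higher, 4 lower; median 0.0395). Mrps18c on CD then stood at 0.0178 (12 libraries) and 0.263, Mrpl45 at 0.0346 and Mrpl58 at 0.13, each above 0 where the 11 libraries gave a value below 0. DESeq2's Wald test called 37, 10 (4 higher, 6 lower), 31 and, for the interaction, 6. Library size in place of TMM called 4 (2 higher, 2 lower) for genotype on HFD, with a median of 0.0197, and 4 for diet in WT. Leaving out each of the 11 libraries in turn gave 14 to 49 members for genotype on CD (medians -0.479 to -0.199), 0 to 7 for genotype on HFD (-0.105 to -0.0196), 2 to 30 for diet in WT (-0.439 to -0.162), 0 to 2 for the interaction and 0 to 0 for diet in HoipA-KO (-0.107 to 0.0253). Beside the libraries named in the report, leaving out HoipA-KO HFD replicate 1, HoipA-KO HFD replicate 3 or WT HFD replicate 3 gave 39, 41 and 38 for genotype on CD. The cause was not tested. Leaving out WT CD replicate 1 or 2 left 1 WT CD library in the fit, and the upper ends of the counts for genotype on HFD and for the interaction came from such fits. Apart from genotype on CD with all 12 libraries, member counts of alternative fits stand here and above without the share of all genes called. They do not set the members apart from other genes.

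The replicate numbers did not pair the samples over all groups (correlations of deviations from -0.375 to 0.509 over 15 pairs of same-numbered libraries), though the 3 pairs of HoipA-KO CD and HoipA-KO HFD were at 0.15, 0.509 and 0.276. With a replicate block the calls were 21 for genotype on CD, 2 on HFD, 3 for diet in WT (Mrps18c, Mrps21 and Mrps35), 0 for diet in HoipA-KO and 0 for the interaction. For the named members, 308 values kept direction and side of the threshold, 42 lost and 24 gained a call, and 4 changed sign. With 2 to 3 pools a group, differences of the size of most members' estimates could not be separated from the spread between libraries.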
